A study of Rattus norvegicus with 15 samples.

Results

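The endoplasmic reticulum (ER) stress response was followed in rat liver through 10 genes of the 32623 in the deposited count table: the ER chaperones and folding enzymes Hspa5, Hsp90b1 and Pdia4, the XBP1 branch and ER-associated degradation genes Xbp1, Herpud1 and Dnajb9, and the genes Atf4, Asns, Ddit3 and Trib3 of the ATF4 and CHOP branch. The genes were chosen by name, from the pathway they belong to. They and the gene lists used below were chosen with earlier results of these data known. All 10 passed the filter on low counts, as did 14417 genes of the whole table.

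The 3 groups compared were made of age-matched male Wistar rats, and each liver came from 1 rat. The control group (n = 4) received no treatment. The cirrhosis group (n = 5) inhaled carbon tetrachloride (CCl4), which injures hepatocytes, and drank phenobarbital at 0.35 g/L for 12 weeks. The cirrhosis & eplerenone group (n = 5) had the same exposure and from week 8 on also received eplerenone, a blocker of the mineralocorticoid receptor, at 100 mg per kg body weight by mouth in hazelnut spread. In the CCl4 rats the livers were taken 7 to 10 days after the last CCl4 dose. CCl4 and phenobarbital were given together, so their shares in a difference cannot be told apart. The rats sequenced were a subgroup that had been picked for a successful induction of cirrhosis or a successful treatment, which limits them as a sample of the model. Another control liver had no counts and was not analysed here. The paper set aside 1 control whose profile stood apart from the rest in a principal component analysis. Whether it is this liver is not stated. The question was whether the genes of ER stress differed between cirrhotic and healthy livers and between cirrhotic livers with and without blockade of the receptor.

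The unfolded protein response is the program by which a cell answers misfolded protein in the ER. Its sensors are PERK (gene Eif2ak3), IRE1 (Ern1) and ATF6: PERK slows translation and lets ATF4 be made, IRE1 splices Xbp1 mRNA into the form that encodes an active transcription factor, and ATF6 is cut to release one. ATF6 and spliced XBP1 raise chaperones and degradation genes, while ATF4 raises amino acid synthesis genes and CHOP (Ddit3), and can also be switched on by amino acid shortage without any ER stress. Hepatocytes secrete most plasma proteins and carry a large ER. Gene counts do not show Xbp1 splicing, translation or protein.

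The promoters of 5 of the 10 genes held a known element of ER stress or of ATF4 near the start, and these are shown here because such elements are the kind of site that ATF6, XBP1 or ATF4 bind. In RefSeq promoter windows of the GRCr8 build (250 bases before to 50 bases after each start, all 10 genes matched), the ER stress response element ERSE (CCAAT, any 9 bases, CCACG, searched like the other elements on both strands) was found in 3 of the 10 genes, against 0.0657% of 33465 rat promoters. Hspa5 held it 43 to 25 bases before the start (window chr3:38452953-38453011, plus strand), Xbp1 at 65 to 47 bases before it (chr14:84604538-84604596, plus strand), and Hsp90b1 held it 2 times, at 176 to 158 and, on the opposite strand, at 72 to 54 bases before it (chr7:23012327-23012489, minus strand). The related ERSE-II (ATTGG, any 1 base, CCACG), which was found in 0.0508% of all promoters, lay in Herpud1 at 124 to 114 bases before the start (chr19:10614801-10614851, minus strand). The C/EBP-ATF response element CARE (TGATGNAAN), a type of site that ATF4 binds, matched in Trib3 at 22 to 14 bases before the start (chr3:161275527-161275575, minus strand) and in Herpud1, against 3.97% of all promoters. Each sequence reads 5′ to 3′ on the strand of its gene, with the element in capitals (in Trib3 the element reads on the opposite strand).
Hspa5: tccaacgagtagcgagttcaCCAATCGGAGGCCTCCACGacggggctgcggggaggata
Hsp90b1: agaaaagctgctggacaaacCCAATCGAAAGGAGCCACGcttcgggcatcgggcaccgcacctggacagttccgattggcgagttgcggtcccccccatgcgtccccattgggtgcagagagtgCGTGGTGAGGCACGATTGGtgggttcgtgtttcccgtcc
Xbp1: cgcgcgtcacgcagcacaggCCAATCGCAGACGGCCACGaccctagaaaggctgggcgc
Herpud1: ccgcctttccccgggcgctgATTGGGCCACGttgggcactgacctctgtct
Trib3: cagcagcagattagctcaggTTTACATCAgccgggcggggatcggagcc
The half-site CCACG, which is part of both ERSE and ERSE-II, was found in 9 of the 10 windows and in 31.6% of all promoters. The UPRE core (TGACGTGG) was in none of the 10 windows and in 0.595% of all. No ERSE, ERSE-II or CARE letters lay within the windows of Pdia4, Dnajb9, Atf4, Asns and Ddit3.

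Counted reads ran from 16157491 to 21574767 per library, and 3 reads, the least taken as a detectable level, equalled 0.121 to 0.191 FPM (reads of a gene per 1000000 counted reads) after scaling by the trimmed mean of M values, the unit of every level below. Animal labels of the CCl4 rats open with the number 15 or 20 and those of the controls with 13 or 16. What the numbers stand for is not given in the sources used here. Because no control shares a number with a CCl4 rat, the number and the CCl4 exposure cannot be told apart, whereas both CCl4 groups hold rats of 15 and of 20. Cell type markers also differed with the exposure. All 6 cholangiocyte markers were called higher in cirrhosis than in control (13.4% of all genes were). Their summed level was 14.4 to 23.6 FPM in control, 46.4 to 142 in cirrhosis and 46.3 to 97.4 with eplerenone. Of 7 markers of stellate cells and myofibroblasts 5 were called higher, while Lrat fell (mean 16.9 to 7.93 FPM), not called. Of 9 hepatocyte markers 1 was called lower (6.71% of all genes were), while Apoa1 and Tf rose (means 1936 to 3242 and 32571 to 48878 FPM), not called. The hepatocyte sums were 183534 to 213161, 142114 to 199389 and 110922 to 202533 FPM. Of T and NK cell markers 3 of 4 were called higher, of macrophage markers 1 of 7 lower, and of 4 endothelial markers 1 each way. None of these marker genes was at 0 throughout a group. Fewer cells of a type and less RNA per cell cannot be told apart in whole liver, and the part of cell makeup in the results that follow was not tested.

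In cirrhosis against control, 1 of the 10 genes was called, the asparagine synthetase gene Asns, which was higher. The quasi-likelihood test of edgeR called 20.2% at a Benjamini-Hochberg adjusted p below 0.05, a share taken over all genes tested, with 13.4% higher and 6.71% lower, so 1 of 10 is no more than the general share. At an unadjusted edgeR p under 0.05 there were 3 of the 10, against 37.1% of all genes. The median log2 fold change of the 10 genes was -0.01, as was that of all genes. In cirrhosis & eplerenone against cirrhosis no gene of the 10 was called, against 0.0139% of all genes (2 genes). At an unadjusted edgeR p under 0.05 there was 1 of the 10, Xbp1, against 14.4% of all genes. DESeq2 called 0 of the 10 and 0.514% of all, and limma-voom 0 of the 10 and 0.00694% of all. The groups overlapped in all 10 genes, and did not in 0.964% of all genes. In cirrhosis & eplerenone against control no gene of the 10 was called either, against 5.22% of all genes (4.33% higher and 0.895% lower). There, 2 genes (Asns and Trib3) were under an unadjusted p of 0.05, as were 20.5% of all genes, and DESeq2 called Asns (10.6% of all genes) where limma-voom called 0 of the 10 (1.55%). Every comparison with the control group uses the same 4 control livers.

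**Figure D1:**
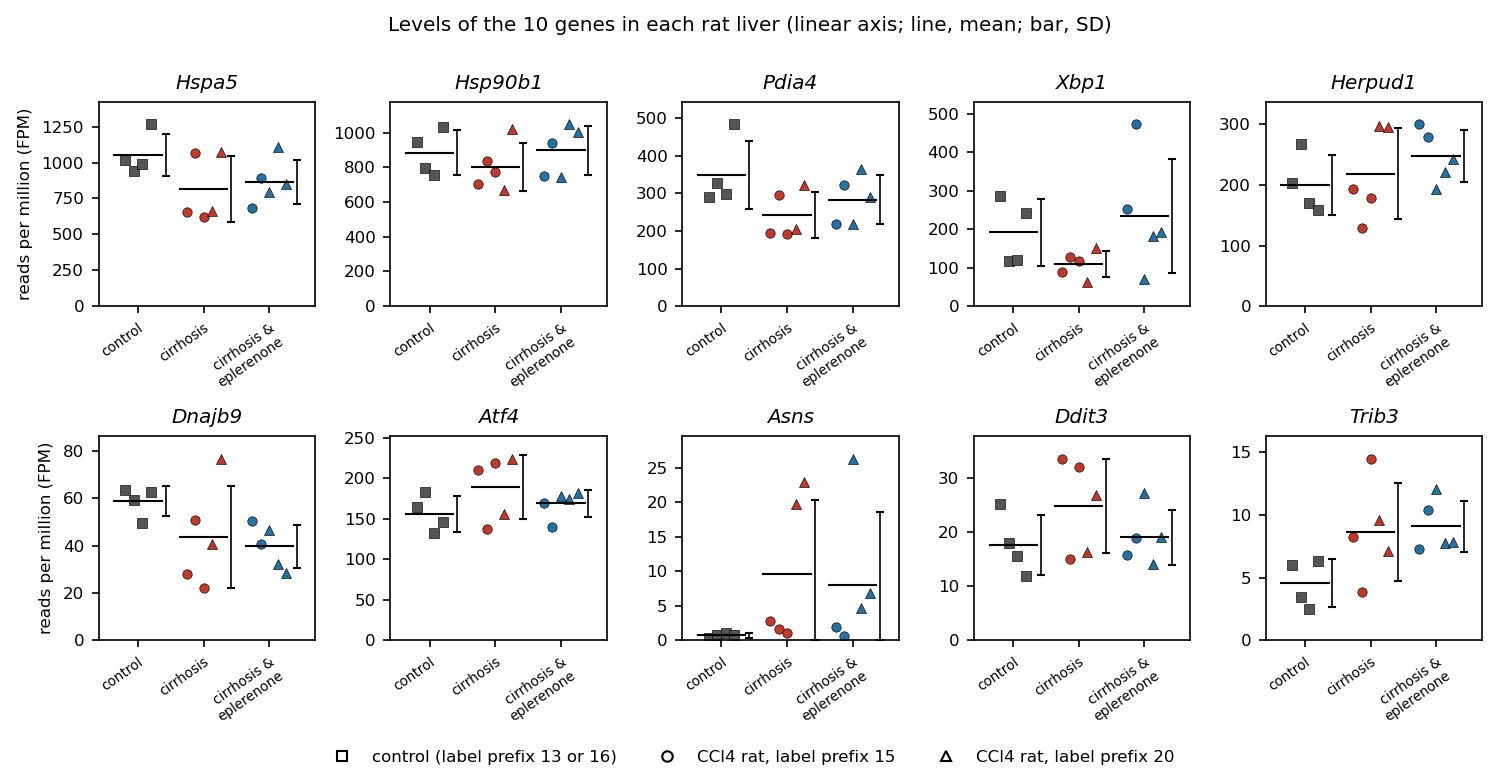
Level of each of the 10 genes in every liver (vertical axes, FPM on linear scales from 0; horizontal, the 3 groups; squares, controls; circles and triangles, CCl4 rats whose labels open with 15 and 20; line, mean; bar, SD, drawn to 0 at the lowest). The chaperone genes overlap between the groups, and the Asns points of the CCl4 rats separate by symbol, with circles at 0.563 to 2.83 and triangles at 4.68 to 26.3.

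The chaperones were not called in any comparison. Hspa5 encodes BiP, the ER chaperone that also holds the sensors inactive. Its level was 1015, 943, 988 and 1266 FPM in the controls (replicates 2 to 5), 658, 1066, 620, 663 and 1076 in cirrhosis (replicates 1 to 5) and 686, 893, 797, 1105 and 850 with eplerenone. The cirrhotic livers of 3 rats (replicates 1, 3 and 4) were thus below every control and the other two among the controls, which gave a log2 fold change of -0.37 (SE 0.23, 95% interval -0.85 to 0.12, adjusted p = 0.246 in edgeR's quasi-likelihood test). With eplerenone against cirrhosis it was 0.09 (SE 0.21, interval -0.37 to 0.54). Both intervals stay within a log2 value of 1 of no change.

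Pdia4, a disulfide isomerase of the ER, had the same order of livers as Hspa5 within each CCl4 group, though not in the controls. It measured 289, 327, 298 and 483 FPM in the controls, 195, 295, 192, 206 and 322 in cirrhosis and 217, 323, 219, 364 and 291 with eplerenone, and the same cirrhotic livers, replicates 1, 3 and 4, were the low ones. Its log2 fold change in cirrhosis was -0.53 (SE 0.24, edgeR adjusted p = 0.116). Hsp90b1, which encodes the ER chaperone GRP94, stayed between 666 and 1047 FPM in the 14 livers and had log2 fold changes of -0.14, 0.17 and 0.02 (SE 0.20, 0.19 and 0.20) in cirrhosis against control, eplerenone against cirrhosis and eplerenone against control. The pattern of Hspa5 over the 14 livers was nearest to that of Pdia4 among 13627 protein coding genes (root mean square difference of standardised log2 levels 0.352), followed by the circadian gene Clock (0.416) and the ER chaperone Hyou1 (0.418). Hsp90b1 took place 241 in that order.

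Xbp1, the transcription factor gene of the IRE1 branch, varied more from rat to rat than the chaperones, with a coefficient of variation of 31.7% to 63.5% within groups against 13.8% to 28.5%. It measured 287, 117, 121 and 243 FPM in the controls, 90.2, 127, 117, 62.1 and 153 in cirrhosis and 252, 473, 71.4, 182 and 193 with eplerenone. Of the 5 livers with eplerenone, 4 lay above all cirrhotic livers and replicate 3 near the lowest. The log2 fold change with eplerenone against cirrhosis was 1.09 (SE 0.41, interval 0.22 to 1.97), the largest of the 10 genes in that comparison, with an unadjusted edgeR p of 0.0176 and an adjusted p of 0.315. In cirrhosis against control Xbp1 had a log2 fold change of -0.81 (SE 0.43, adjusted p = 0.182), and with eplerenone against control one of 0.29 (SE 0.43, adjusted p = 0.785).

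Split by the number in the animal label, Xbp1 differed most among the rats of 15, in which the 2 livers with eplerenone (252 and 473 FPM) were above the 3 without (90.2 to 127), with a log2 fold change of 1.67 (SE 0.48, edgeR adjusted p = 0.0957). Among the rats of 20 the levels overlapped (71.4 to 193 against 62.1 to 153 FPM) and the log2 fold change was 0.50 (SE 0.49). The difference between these effects was not called (-1.18, SE 0.67, edgeR adjusted p = 0.461). Without cirrhosis replicate 5 and cirrhosis & eplerenone replicate 3, which the authors had left out of one of their own selections, 4 rats remained in each group, and the change of Xbp1 with eplerenone was 1.45 and was called (adjusted p = 0.0332). It was the 1 call among the 10 genes in that fit, which called 9.16% of all genes in this comparison. Leaving out only one of these livers did not call Xbp1 (edgeR adjusted p = 0.116 without cirrhosis replicate 5 and 0.152 without cirrhosis & eplerenone replicate 3).

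Herpud1, a membrane protein of ER-associated degradation, was 159 to 268 FPM in the controls, 130 to 298 in cirrhosis and 194 to 300 with eplerenone, and its log2 fold changes were within 0.31 in size in the 3 comparisons. Within the rats of 15 all livers with eplerenone (280 and 300 FPM) exceeded those without (130 to 193), and within the rats of 20 they were lower (194 to 243 against 295 and 298). The difference between these effects had a log2 value of -1.18 (SE 0.36, edgeR adjusted p = 0.373), and no gene of the whole table was called for that difference.

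Dnajb9 encodes ERdj4, a BiP cochaperone that is a standard readout of IRE1 and XBP1. The controls lay close together at 63.5, 59.4, 49.8 and 62.8 FPM, while the cirrhotic livers spread from 22.0 to 76.9 (28.2, 50.8, 22.0, 40.7 and 76.9) and those with eplerenone measured 50.4, 40.9, 46.5, 32.5 and 28.5. Of the 10 CCl4 livers 7 were below all controls, but cirrhosis replicate 5 was the highest of all livers. The log2 fold change was -0.43 (SE 0.29, adjusted p = 0.288) in cirrhosis and -0.57 (SE 0.29, adjusted p = 0.291) with eplerenone against control. Cirrhosis replicate 5 also had the highest hepatocyte marker sum of its group and the lowest cholangiocyte marker sum (46.4 FPM). Without it, Dnajb9 and Pdia4 were called lower in cirrhosis than in control (log2 fold change -0.73 and -0.65, edgeR adjusted p = 0.0359 and 0.0480). The share of all genes called in that fit is not given here. When cirrhosis & eplerenone replicate 3 was left out as well, both genes were again called lower (-0.71 and -0.64, edgeR adjusted p = 0.0382 and 0.0443). That second fit called 34.2% of all genes in cirrhosis against control, 14.9% lower. The reported fit called 20.2%, 6.71% lower.

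**Figure D2:**
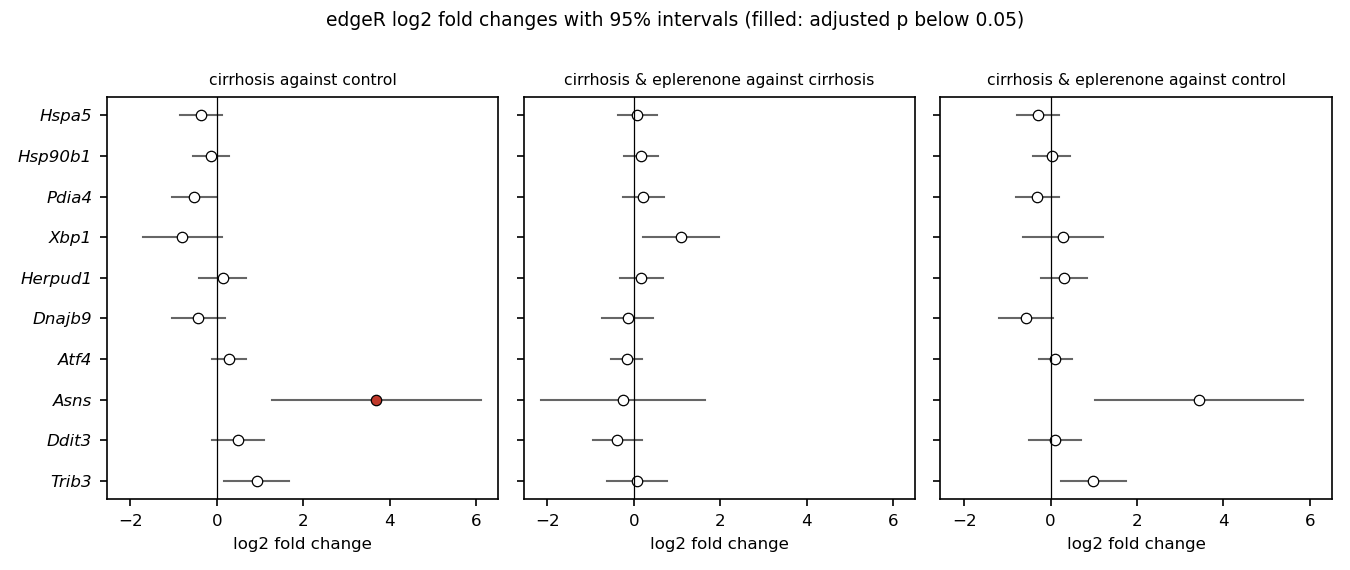
Log2 fold change of each of the 10 genes (horizontal axis) with its 95% interval in the 3 comparisons, from edgeR over all genes tested; the filled point is the 1 call, Asns at 3.68 in cirrhosis against control. The intervals of Hspa5, Hsp90b1, Herpud1, Dnajb9, Atf4 and Ddit3 include 0 in each comparison, and the interval of Xbp1 leaves out 0 only with eplerenone against cirrhosis.

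In the ATF4 and CHOP branch, the upstream factors were not called. Atf4 measured 164, 183, 132 and 146 FPM in the controls, 211, 138, 218, 156 and 224 in cirrhosis and 169, 140, 179, 175 and 181 with eplerenone. Ddit3, whose product CHOP promotes cell death under lasting ER stress, measured 25.1, 17.9, 15.5 and 11.8 FPM in the controls, 33.6, 14.97, 32.0, 16.4 and 26.8 in cirrhosis and 15.8, 18.9, 27.2, 14.1 and 19.0 with eplerenone. In both genes cirrhosis replicates 1, 3 and 5 were above every control and replicates 2 and 4 among them. The log2 fold changes in cirrhosis were 0.28 for Atf4 (SE 0.18, adjusted p = 0.271) and 0.49 for Ddit3 (SE 0.28, adjusted p = 0.217), and with eplerenone against cirrhosis they were -0.17 (SE 0.17) and -0.38 (SE 0.27). The genes nearest to the pattern of Atf4 were Mif, Slc27a4 and Exosc6 (root mean square differences 0.528, 0.541 and 0.564), and Ddit3 took place 45 of 13627. Much of ATF4 control acts on translation, which mRNA counts do not show.

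Trib3, a pseudokinase induced by ATF4 and CHOP, was low but higher in most CCl4 livers. It measured 6.03, 3.47, 2.50 and 6.30 FPM in the controls, 8.21, 3.84, 14.5, 9.59 and 7.14 in cirrhosis and 7.31, 10.4, 12.1, 7.79 and 7.87 with eplerenone. All 5 livers with eplerenone and 4 of 5 cirrhotic livers exceeded every control, so with eplerenone the groups did not overlap, as in 10.9% of all genes in that comparison. The log2 fold changes against control were 0.92 (SE 0.36, adjusted p = 0.0765) in cirrhosis and 0.99 (SE 0.36, adjusted p = 0.124) with eplerenone, neither of them called. DESeq2 called the first (adjusted p = 0.0413), as it did 27.8% of all genes in that comparison.

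Asns, which makes asparagine from aspartate and is a standard target of ATF4, showed the widest range. It was at 0.302, 0.752, 1.10 and 0.827 FPM in the controls, which is 5 to 18 reads. In cirrhosis it was at 2.83, 1.67, 1.13, 19.7 and 22.9 FPM (21 to 385 reads), and with eplerenone at 1.94, 0.563, 26.3, 4.68 and 6.83 FPM (9 to 650 reads). All cirrhotic livers were above all controls, 3 of them narrowly, whereas with eplerenone replicate 2 lay among the controls. Asns was the 1 gene of the 10 whose groups did not overlap in cirrhosis against control, against 20.2% of all genes. The log2 fold change in cirrhosis against control was 3.68 (SE 1.14, interval 1.26 to 6.10), with an adjusted p of 0.0350 in edgeR's quasi-likelihood test and 0.00369 in DESeq2, and limma-voom did not call it (adjusted p = 0.232). With eplerenone against control it was 3.43 (SE 1.13, edgeR adjusted p = 0.0908), and with eplerenone against cirrhosis -0.25 (SE 0.89, interval -2.13 to 1.64).

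Among the CCl4 rats the Asns level differed with the number in the animal label. The 5 rats of 15 were at 0.563 to 2.83 FPM (mean 1.63, SD 0.85) and the 5 rats of 20 at 4.68 to 26.3 FPM (mean 16.1, SD 9.74), with no overlap, in both CCl4 groups. This split was looked at after the values were seen, so its edgeR result is given as a description: with eplerenone as a term, the rats of 20 were higher by a log2 value of 3.42 (SE 0.54, unadjusted p = 4.94e-05, adjusted p = 0.0594), where 0.0763% of all genes were called. When the CCl4 rats of 15 alone were set against the controls, the log2 fold change of Asns in cirrhosis was 1.34 (adjusted p = 0.0962, not called) and that with eplerenone 0.74 (adjusted p = 0.677). With the rats of 20 alone they were 4.85 (adjusted p = 0.00454) and 4.13 (adjusted p = 0.00578), both called. The call in cirrhosis against control was also lost when any 1 of the 4 controls (adjusted p 0.0676 to 0.0869) or cirrhosis replicate 4 (0.0744) was left out. No gene of the 10, Asns included, was called for the number in the label, and the next in size was Xbp1 (-0.67, SE 0.37, adjusted p = 1.00).

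**Figure D3:**
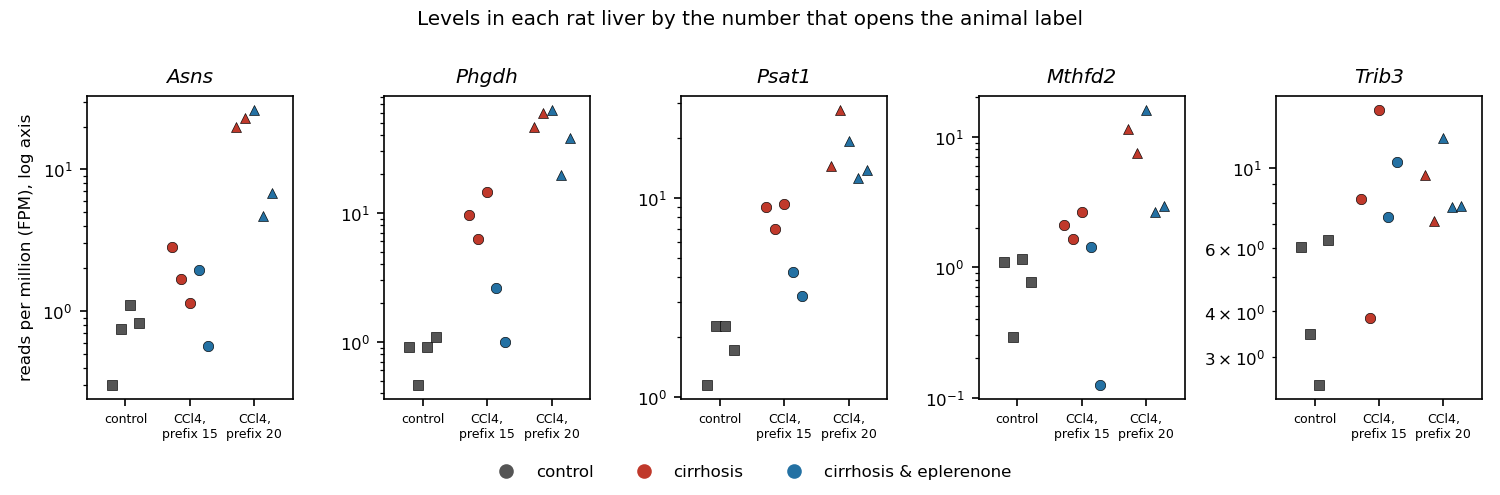
Levels (FPM, log axes) of Asns, Phgdh, Psat1, Mthfd2 and Trib3 in each liver, with the CCl4 rats split by the number that opens their label (horizontal; colours mark the groups). Asns, Phgdh, Psat1 and Mthfd2 are higher in each rat of 20 than in each rat of 15, and Trib3 overlaps.

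Other targets of ATF4 and CHOP, a list chosen with earlier results of these data known, rose in part. Of 25 genes listed, 22 had a row and 21 were tested, of which 6 were called higher (13.4% of all genes tested were) and 0 lower in cirrhosis against control, with a median log2 fold change of 0.32. The largest was Phgdh, the first enzyme of serine synthesis, at 0.463 to 1.08 FPM in the controls and 6.28 to 59.8 in cirrhosis (log2 fold change 5.02, SE 1.13, adjusted p = 0.00803 in edgeR's quasi-likelihood test), a call that limma-voom did not make (adjusted p = 0.126). Vldlr, the very low density lipoprotein receptor, rose by 3.38 (SE 0.68, edgeR adjusted p = 0.00459). Its level was 0.127 FPM, which is under 3 reads, to 0.636 in the controls and 1.96 to 5.33 in cirrhosis. Psat1, which follows Phgdh in serine synthesis, rose by 2.87 (SE 0.56, edgeR adjusted p = 0.00393), from 1.15 to 2.26 FPM in the controls to 6.94 to 27.8 in cirrhosis. The other called genes, named after their values were seen, were the stress protein gene Nupr1 (1.91), the transcription factor gene Atf3 (1.82) and the mTORC1 inhibitor gene Ddit4 (1.65). Not called were 15 genes, among them Chac1 (-0.60), Sesn2 (-0.65), Fgf21 (-1.40) and the mitochondrial folate enzyme gene Mthfd2 (2.61, adjusted p = 0.0679, though called by DESeq2), also named after their values were seen.

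With eplerenone against control, Phgdh (4.88), Vldlr (3.22) and Psat1 (2.53) were called higher, as were 4.33% of all genes. None of them was called by limma-voom, which called 0 of the 21 and 1.55% of all genes. With eplerenone against cirrhosis 0 of the 21 were called. There, 1 was at an unadjusted edgeR p under 0.05 (14.4% of all genes were) and DESeq2 called 0 (0.514% of all genes). No gene of the 21 was called for the number in the label, but the levels of 3 (Phgdh, Psat1 and Mthfd2, named after their values were seen) did not overlap between the numbers, which also held for 1.73% of all genes (1.07% higher in the rats of 20). Like Asns, Phgdh and Psat1 were higher in every CCl4 rat of 20 (19.6 to 63.3 and 12.6 to 27.8 FPM) than in every one of 15 (1.00 to 14.6 and 3.19 to 9.33 FPM), by log2 values of 3.36 (SE 0.54) and 1.68 (SE 0.27), both with an edgeR adjusted p of 0.0637. Mthfd2 ranged from 0.125 FPM, which is under 3 reads, to 2.64 in the rats of 15 and from 2.65 to 16.1 in those of 20. When the cirrhotic rats of 15 alone were compared with the controls, Phgdh and Psat1 were still called, but with eplerenone they were not (log2 fold changes of 1.10 and 0.99, adjusted p = 0.348 and 0.191).

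The sensors and their close regulators went in both directions. Of 13 genes tested, 1 was called higher and 2 lower in cirrhosis, a share close to the 20.2% of all genes called. With eplerenone against cirrhosis 0 were called. There, 4 were at an unadjusted edgeR p under 0.05 (14.4% of all genes were) and DESeq2 called 0 (0.514% of all genes). Ppp1r15a, which encodes GADD34, the phosphatase subunit that reverses the translation block of PERK, was at 13.5 to 15.5 FPM in the controls, 18.8 to 51.2 in cirrhosis and 25.0 to 50.7 with eplerenone. It was thus higher in every CCl4 liver than in every control, by log2 values of 1.38 (SE 0.30, adjusted p = 0.00690) in cirrhosis and 1.41 (SE 0.30, adjusted p = 0.0147) with eplerenone. Such a lack of overlap, in either direction, held for 20.2% of all genes in cirrhosis against control and for 10.9% with eplerenone against control. Ern1, which encodes the sensor IRE1, was lower in cirrhosis, at 16.3 to 39.4 FPM against 44.3 to 52.6 in the controls (log2 fold change -0.91, SE 0.25, adjusted p = 0.0220), and so was Creb3l2 (-1.12, SE 0.38, adjusted p = 0.0496), a transcription factor of the ATF6 type. With eplerenone Ern1 overlapped both groups, at 26.4 to 49.7 FPM, and its change against cirrhosis was not called (0.56, SE 0.24, edgeR adjusted p = 0.328).

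Atf6 measured 11.8 to 26.0 FPM in the controls, 5.50 to 14.2 in cirrhosis and 9.56 to 28.4 with eplerenone. Its log2 fold changes were -0.98 in cirrhosis (SE 0.35, adjusted p = 0.0586) and 1.10 with eplerenone against cirrhosis (SE 0.33, edgeR adjusted p = 0.312), neither called by edgeR, while DESeq2 called the first (adjusted p = 0.0355). Eif2ak3, the PERK gene, was at 18.3 to 23.0 FPM in the controls, 10.3 to 25.7 in cirrhosis and 12.6 to 19.6 with eplerenone, with log2 fold changes of -0.12, -0.28 and -0.39 (SE 0.25, 0.24 and 0.25) in the order cirrhosis against control, eplerenone against cirrhosis and eplerenone against control.

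Among the wider ER machinery, the chaperones and the degradation genes had fewer calls in cirrhosis than the general share of 20.2% and the traffic genes about that share. Of 18 further ER chaperones and folding enzymes 0 were called in each comparison by edgeR's quasi-likelihood test. In cirrhosis against control 4 of them were under an unadjusted edgeR p of 0.05 (37.1% of all genes were) and DESeq2 called 1 (27.8% of all genes). Their median log2 fold change was -0.15, and their summed level was 5071 to 6167 FPM in the controls and 4706 to 5861 in cirrhosis. In ER-associated degradation 1 of 14 was called, Derl2, a part of the channel for export from the ER, which was lower in cirrhosis (-0.53, SE 0.16, adjusted p = 0.0334). Translocation and secretory traffic had 3 of 19 called higher and 1 lower (13.4% and 6.71% of all genes). Kdelr3, a receptor that returns chaperones to the ER, rose by 1.87 (SE 0.42, adjusted p = 0.00755), from 1.21 to 2.69 FPM in the controls to 3.87 to 9.33 in cirrhosis. Ssr2 (0.61), a subunit of the translocon-associated protein complex, and Sec61g (0.60), a subunit of the translocation channel, were higher. Sec63 (-0.60), a cofactor of that channel, was lower. Sec61g was named after its values were seen.

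Aminoacyl-tRNA synthetases and heat shock proteins lie outside the ER. Among the synthetases, several of which ATF4 induces, 0 of 12 were higher in cirrhosis and 1 was lower (Eprs, -0.61, SE 0.20, adjusted p = 0.0402). Of 11 heat shock proteins of the cytosol and mitochondria, 0 were higher and 2 lower, against 6.71% of all genes called lower, Hsph1 (-0.96, SE 0.31, adjusted p = 0.0384) and Dnaja1 (-0.56, SE 0.18, adjusted p = 0.0404). With eplerenone against cirrhosis 0 genes of these 5 lists (chaperones, degradation, traffic, synthetases and heat shock proteins) were called in edgeR. At an unadjusted edgeR p under 0.05 there were 2 chaperones, 2 degradation genes, 3 traffic genes, 1 synthetase and 0 heat shock proteins, against 14.4% of all genes. DESeq2 called 1 of them all (0.514% of all genes), Edem1, named after its values were seen. Its product marks misfolded glycoproteins for degradation (edgeR log2 fold change 1.57, SE 0.43, adjusted p = 0.312). With eplerenone against control 0 genes of these lists were called either, with 1, 1, 1, 1 and 2 at an unadjusted edgeR p under 0.05, against 20.5% of all genes. DESeq2 called Derl2 and Kdelr3 there, and 10.6% of all genes.

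The list counts depended on the libraries and the scaling. Without cirrhosis replicate 5 and cirrhosis & eplerenone replicate 3, the calls in cirrhosis against control rose from 20.2% to 34.2% of all genes (19.3% higher, 14.9% lower), and those of the lists to 4 of 18 chaperones (1 higher, 3 lower), 5 of 14 degradation genes (all lower), 5 of 13 sensors and regulators (1 higher, 4 lower), 10 of 21 targets of ATF4 and CHOP (7 higher, 3 lower), 3 of 12 synthetases (1 higher, 2 lower) and 9 of 19 traffic genes (4 higher, 5 lower). With eplerenone against cirrhosis that fit called 9.16% of all genes (4.46% higher, 4.7% lower), among them 2 degradation genes higher (Edem1 and Sel1l), 2 sensors and regulators higher (Ppp1r15b and Atf6), 2 synthetases higher, 2 traffic genes lower and 1 ATF4 target lower, genes singled out here once their values were known. The calls of Derl2, Creb3l2, Ern1, Eprs, Sec63, Hsph1 and Dnaja1 were lost when libraries were scaled by their total counted reads. Called higher instead were 3 of 18 chaperones (Pdia6, Ppib and P4hb), Edem2, Spcs1, Hspd1 and Hspb1, named after their values were seen. In that fit 23.7% of all genes were called (21.2% higher, 2.54% lower). It is a scaling that raised the median log2 fold change of all genes by 0.29 in cirrhosis against control and by 0.32 with eplerenone against control. That scaling also turned the split of all calls in cirrhosis from 66.7% to 89.3% higher.

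**Figure D4:**
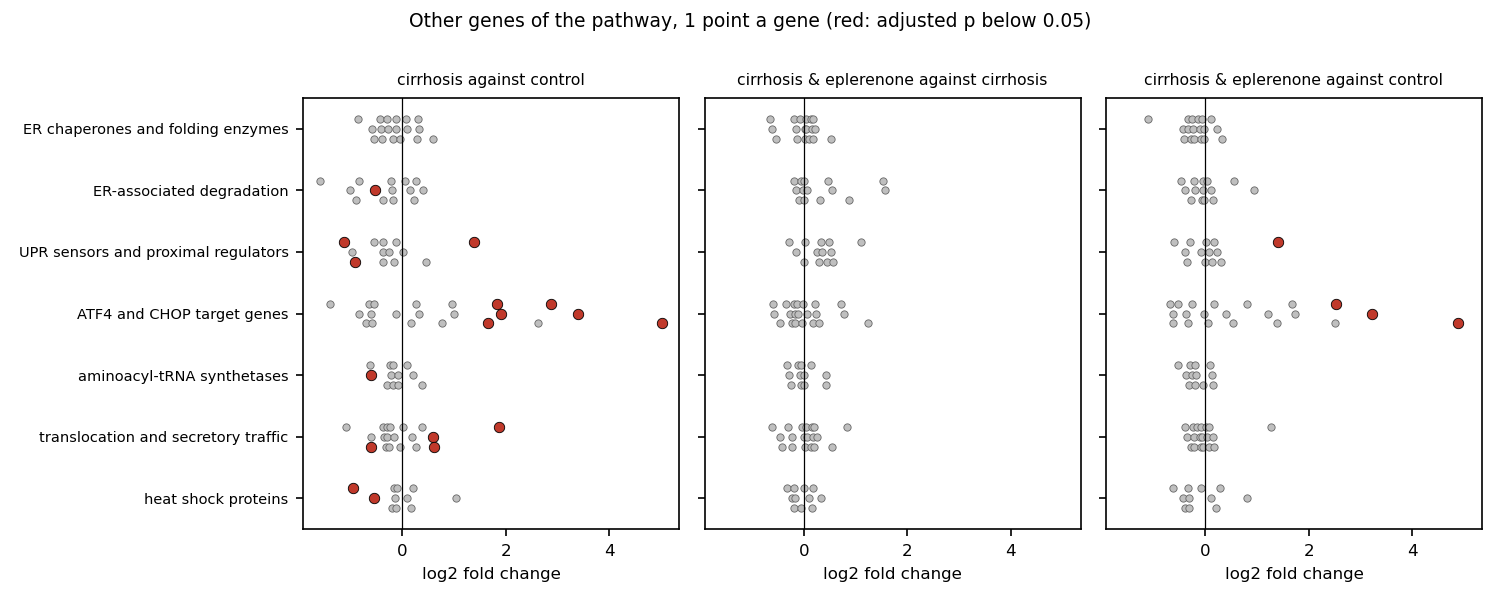
Log2 fold change (horizontal axis) of each tested gene in the 7 lists of ER stress and neighbouring pathways, 1 point a gene, in the 3 comparisons; red points had an edgeR adjusted p below 0.05. The 6 red points of the ATF4 and CHOP list in cirrhosis against control lie between 1.65 and 5.02, and there is none in eplerenone against cirrhosis.

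Genes with an ERSE or ERSE-II in the promoter window were also counted without regard to their function. Of 38 such gene symbols, 4 of them among the 10 genes, 28 were tested. In cirrhosis against control 1 of the 28 was called, against 20.2% of all genes, and 0 in each other comparison. The call was the mitosis gene Birc5 (2.14, SE 0.54, adjusted p = 0.0148 in edgeR's quasi-likelihood test), singled out here once its values were known. The median log2 fold change of the 28 was -0.14 in cirrhosis against control, 0.12 with eplerenone against cirrhosis and 0.01 with eplerenone against control. The medians of all genes were -0.01, 0.01 and 0.01 in that order. Known ER genes in this set that are not among the 10 ran in cirrhosis from -0.87 for Ero1b, an oxidase of disulfide formation, through Dnajc3 (-0.41), Hyou1 (-0.40), Creld2 (-0.29), Canx (-0.27), Calr (-0.13) and Dnajb11 (-0.13) to 0.40 for Derl3, a degradation gene, none of them called.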

How the data were processed

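Poly(A) RNA of rat liver was sequenced from both ends (150 bases). The authors aligned to rn6 (HISAT2 2.1.0), summed exon reads by gene (featureCounts 2.0.0; Ensembl 101 names through biomaRt 2.44.4) and deposited these raw counts without normalization. Multi-mapping reads were kept, so near-identical copies share reads. Strand setting was not given in the sources used here.

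The counts of 14 livers were tested with edgeR 4.0.16 (R 4.3.3): trimmed mean of M values, default filter (minimum count 10, 14417 genes left), quasi-likelihood fit of all 3 groups, and Benjamini-Hochberg adjustment over all genes tested, with calls below 0.05. DESeq2 1.42.0 and limma-voom 3.58.1 were alternatives, with the others given in the closing section. The replicates are separate animals. The method was tested on simulated data. Library pairs differed by more than sampling noise. The 10 genes and the lists were chosen with earlier results of these data known. Named were the 10 genes, Eif2ak3, Ern1 and Atf6, from each list up to 3 called genes of largest change per comparison, and 3 genes nearest in pattern to Hspa5 and Atf4 (root mean square difference of standardised log2 FPM). Other genes were named after their values were seen, and most are marked so. Promoters are from RefSeq (GRCr8).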

Additional observations from a re-analysis of the deposited data

Results flagged for a closer look

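Among 30 sets of values, the 10 genes in each of the 3 groups, 1 liver stood apart by Dixon's criterion, which chance meets in about 1 of 20 sets: Asns in cirrhosis & eplerenone replicate 3, at 26.3 FPM, where the gap to the next liver was 0.757 of the range of the group. That rat has a label of 20, as have the other livers with an Asns level above 4 FPM. Without it the log2 fold change of Asns with eplerenone against cirrhosis was -1.47 and with eplerenone against control 2.24.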

How the results depend on the processing

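For the 10 genes, 342 of 367 log2 fold changes under alternatives other than leaving out 1 library kept their direction and their side of the threshold. Most were not called in the reported fit, so keeping their side says little. The call of Asns in cirrhosis against control was lost with limma-voom and with CCl4 rats of 15 only. In cirrhosis against control 1 gene was called in the reported fit, against 20.2% of all genes. Scaling by total counted reads gave 3 (Atf4, Asns, Trib3), against 23.7% of all genes. With at least 10 counts in every sample, which removes Asns, 0 were called, against 1983 of 11199 genes. DESeq2 called 2 (Asns, Trib3) and 27.8% of all genes, and limma-voom 0 and 19%. With 4 rats in each group 3 were called (Asns higher, Pdia4 and Dnajb9 lower), against 34.2% of all genes. That fit left out cirrhosis replicate 5 and cirrhosis & eplerenone replicate 3. With CCl4 rats of 15 only the 1 call was Dnajb9, lower. The share of all genes called with these rats is not given here. With eplerenone against cirrhosis there were 0, and 1 with 4 rats in each group (Xbp1), against 9.16% of all genes. With eplerenone against control there were 0, and 1 with total counted reads (Trib3), with DESeq2 (Asns) and with CCl4 rats of 20 only (Asns, chosen after seeing the data). Over all genes these fits called 1351 of 14417, 10.6% and 1256 of 14752. Leaving out 1 library gave 0 to 3, 0 to 0 and 0 to 1 calls in this order of comparisons. The 3 came without cirrhosis replicate 5 (Asns, Pdia4, Dnajb9) and the 1 with eplerenone against control without cirrhosis & eplerenone replicate 2 (Asns). The shares of all genes called in the fits without 1 library are not given here, so these counts cannot be set against them. Called in 6 of 21 in the reported fit, the ATF4 and CHOP targets numbered 3 to 9 under such omissions (0 to 5 with eplerenone against control, where 3 were called). Among list genes called in cirrhosis, Phgdh, Psat1, Vldlr, Ppp1r15a and Kdelr3 were called in 14 of 14 such fits, Ern1 in 10, Derl2, Hsph1 and Ssr2 in 8, Sec63 in 7, Eprs and Dnaja1 in 5 and Creb3l2 in 4. With at least 10 counts in every sample, 3 of 17 targets of ATF4 and CHOP were called in cirrhosis (Nupr1, Psat1 and Atf3). Phgdh, Vldlr and Ddit4 were not among these calls. That filter takes out genes with fewer counts in any liver.

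Signs turned in small values. With total counted reads these were Hsp90b1 in cirrhosis (0.14), Eif2ak3 in cirrhosis (0.20) and Hspa5 with eplerenone against control (0.022). With 4 rats in each group they were, with eplerenone against cirrhosis, Dnajb9 (0.084) and Trib3 (-0.14) and, against control, Ddit3 (-0.051). Within label prefix 15, eplerenone against cirrhosis gave 0.44 for Dnajb9 and 0.14 for Eif2ak3, and within 20 it gave -0.42 for Herpud1. With CCl4 rats of 15 only against the controls, Herpud1 was -0.25 in cirrhosis, and Hsp90b1 -0.075, Atf4 -0.031 and Ddit3 -0.035 with eplerenone. With those of 20 only, Dnajb9 was 0.012 and Eif2ak3 0.29 in cirrhosis, and Xbp1 -0.35 and Atf6 -0.26 with eplerenone. Leaving out 1 library gave, with eplerenone against cirrhosis, -1.47 to 0.35 for Asns, -0.31 to 0.16 for Dnajb9, -0.018 to 0.20 for Hspa5 and -0.12 to 0.34 for Trib3, with eplerenone against control, -0.052 to 0.33 for Ddit3, -0.047 to 0.10 for Hsp90b1, -0.14 to 0.54 for Xbp1 and -0.040 to 0.35 for Atf6, and in cirrhosis, -0.00086 to 0.30 for Herpud1 and -0.22 to 0.071 for Eif2ak3. The cause of these changes was not tested.

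Replicate numbers do not pair the rats: the correlations of same-numbered livers ran from -0.333 to 0.187 with both signs. With the replicate number as a block, 1, 0 and 0 of the 10 genes were called. Asns was counted from 5 to 18 reads per control liver and spread most within both CCl4 groups, and its fold change had the largest SE of the 10 in each comparison. The intervals are for log2 fold changes between groups, estimated from these 14 livers, and do not give the range of single livers.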
